A study of Rattus norvegicus with 8 samples.

Results

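Genes of the mitochondrial respiratory chain and the ATP synthase were followed in the livers of weanling rats whose mothers had received a mixture of environmental contaminants. The members were all protein-coding rat genes whose symbols start with Nduf, Uqcr, Cox4 to Cox8, Atp5 or Sdh, each measured by its brightest Cy5 probe. Of 122 such genes in the RefSeq table, 83 had a probe that could be named and 78 were bright enough to test, among 10567 genes or unnamed probes tested on the arrays (6938 with a gene symbol). The 78 comprised 31 subunits of complex I, 4 of complex II, 8 of complex III, 12 of complex IV, 14 of complex V and 9 assembly factors or regulators that share the prefixes.

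All animals were male Sprague-Dawley pups at 21 days of age that had stayed with their birth mothers. Control dams were given corn oil throughout gestation and lactation. Over the same time, 0.5MAhR dams were given a mixture in corn oil at 0.5 mg/kg/day that held PCBs (polychlorinated biphenyls), OCPs (organochlorine pesticides) and MeHg (methyl mercury), to which AhR agonists were added, dioxin-like compounds that activate the aryl hydrocarbon receptor. The dioxin-equivalent dose (TCDD-TEQ) of the 0.5MAhR group was 6.3 ng/kg/day. Each array carried pooled liver RNA of 2 pups in Cy5, so 8 pups of each group gave 4 Control arrays (pools 5 to 8) and 4 0.5MAhR arrays (pools 1 to 4), and, in Cy3, a universal reference made of RNA from 14 cell lines of the rat. Pups were paired at random within a group, and no label names their litters, so a p-value measures the spread between pools.

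The respiratory chain oxidises NADH at complex I and succinate at complex II, passes the electrons through ubiquinone to complex III and through cytochrome c to complex IV, which reduces oxygen. Complexes I, III and IV pump protons across the inner mitochondrial membrane, and complex V, the ATP synthase, makes ATP from the returning flow. Most subunits are coded in the nucleus, and hepatocytes hold many mitochondria because urea synthesis, gluconeogenesis and fatty acid oxidation take place there or draw on their ATP. None of the 13 subunits coded in mitochondrial DNA had a named probe here (0 of 13), so the results concern nuclear genes only.

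The 8 arrays lay on 1 slide in 2 columns, and each column held 2 arrays of each group: Control 5 and 7 with 0.5MAhR 2 and 4 in column 1, and Control 6 and 8 with 0.5MAhR 1 and 3 in column 2. The share of spots with a Cy5 signal well above background was 42.9% to 49.2%, no spot was saturated (0 on each array), and the number of arrays limits the precision. Across genes, r was 0.981 to 0.991 between arrays in the same column and 0.938 to 0.962 between arrays in unlike columns. All 8 hepatocyte markers were measured, with albumin (Alb) at a mean log2 ratio of 8.92 over the reference in Control liver. The Control 8 array stood apart in brown fat markers: Ucp1, the uncoupling protein of brown adipocytes, had a log2 Cy5 signal of 7.82 there and of 5.99 to 6.14 on the other arrays, and was above background on Control 8 only. Some results over all arrays are therefore also given without Control 8, and those by slide column are not.

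Promoter windows show what many of the nuclear genes have in common in sequence. NRF1, the ETS factor GABPA, YY1 and the estrogen-related receptors (ERR) are known regulators of respiratory genes. A core motif of each was searched on both strands in the window from 250 bases before to 50 bases after the start of each gene (RefSeq, build GRCr8). Of the 78 tested members, 69 had a full window and 9 did not. The 5 stretches below, 120 bases directly upstream of the start, were chosen after the matches were seen, 1 for each complex, to show NRF1 and ETS letters near a start site. Motif letters are in capitals: GCATGCG for NRF1, CCGGAAG for ETS and GABPA, AAGATGG for YY1 and AAGGTCA for ERR, or their reverse complements.
Ndufa11, chr9:1637494-1637613, + strand: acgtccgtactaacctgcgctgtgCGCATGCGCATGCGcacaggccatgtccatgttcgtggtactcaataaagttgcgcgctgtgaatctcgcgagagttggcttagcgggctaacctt
Sdhb, chr5:158547814-158547933, + strand: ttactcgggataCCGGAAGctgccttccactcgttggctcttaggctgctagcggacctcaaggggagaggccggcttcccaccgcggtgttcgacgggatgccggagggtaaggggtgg
Uqcrc2, chr1:184599120-184599239, + strand: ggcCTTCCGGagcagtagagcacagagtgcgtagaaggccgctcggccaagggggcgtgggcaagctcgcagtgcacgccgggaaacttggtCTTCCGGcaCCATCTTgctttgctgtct
Cox5b, chr9:46417717-46417836, + strand: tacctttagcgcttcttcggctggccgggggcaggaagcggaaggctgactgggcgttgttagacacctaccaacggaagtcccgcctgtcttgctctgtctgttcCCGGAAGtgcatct
Atp5me, chr14:1464740-1464859, + strand: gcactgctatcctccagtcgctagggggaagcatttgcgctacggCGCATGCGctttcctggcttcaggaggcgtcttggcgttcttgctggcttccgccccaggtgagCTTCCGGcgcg

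The Ndufa11 window, from a complex I subunit, carries overlapping NRF1 matches, and that of Atp5me, the e subunit of the ATP synthase, carries NRF1 and ETS matches together. In the Uqcrc2 window, from a core protein of complex III, an ETS match lies close to a YY1 match. Across the members, NRF1 letters were found in 12 of 69 windows (17.4%), against 3.54% of all 27457 promoters of the same length. ETS letters were found in 24 (34.8% against 9.22%), YY1 letters in 15 (21.7% against 7.30%) and ERR letters in 9 (13.0% against 4.37%). At least 1 of the 4 motifs occurred in 41 windows, against 6040 of the 27457 promoters, and NRF1 and ETS together in 5. By complex, NRF1 letters were in 5 of 13 windows of complex V and in 2 of 28 of complex I. These are letter matches, not measured binding sites. All promoters were counted whether or not their genes were tested here, and other genes measured in liver were not compared separately.

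Nearly all tested members had more signal in Control liver than in the cell-line reference. The mean log2 ratio was above 0 for all 69 tested subunits of complexes I to V and for 76 of the 78 members, against 54.1% of all genes tested, and the members' median was 1.04 against 0.0968. Class medians were 1.06 for complex I, 1.31 for II, 0.905 for III, 0.847 for IV, 1.20 for V and 0.416 for the assembly factors and regulators. The ratio compares one probe between liver and reference, all arrays had the same dye orientation, and dye bias is part of it. Testing required signal above background in Cy5, the liver channel, and the probe brightest in Cy5 was used. Genes with signal in the reference but too little in liver, such as Cox6a2, are therefore not in these counts.

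Within complex V the ratio was highest for Atp5me, at 2.12 ± 0.37 (SD, n = 4), and for Atp5mc1, a gene of the membrane ring subunit c, at 2.07 ± 0.28. The catalytic beta subunit Atp5f1b had 0.72 ± 0.20 and the alpha subunit Atp5f1a 1.20 ± 0.25. Atp5me was singled out after its value was seen. Among complex II genes the mean ratio lay between 1.17 for Sdha, the flavoprotein, and 1.44 for Sdhd, a membrane anchor, a range smaller than the SD of Sdha (0.62). SDs over the Control arrays include the difference between the slide columns, which for Sdha was 0.98 (column 2 minus column 1). Complex III ranged from 0.54 for Uqcrq and Uqcrc1 to 1.74 for Uqcr10.

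The isoforms of complex IV differed in what could be measured. Cox4i1, the widespread isoform of subunit 4, stood at 1.26 ± 0.51 (SD, n = 4) on the log2 ratio scale in Control liver, and Cox4i2, its lung and hypoxia-linked isoform, 0.12 ± 0.22. Cox6a1, the liver isoform of subunit 6a, was measured on all 8 arrays, whereas Cox6a2, the heart and muscle isoform, was not above background in Cy5 on any array, although the reference was above background on all 8. Cox6b2, known as the testis isoform of subunit 6b, had 0.82 ± 0.14. Levels of different isoforms were not set against each other, since they come from different probes.

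Of the 78 tested members, 2 had Control ratios below the reference, both regulators. Atp5if1, the protein inhibitor of the ATP synthase, had -0.96 ± 0.16 (SD, n = 4), and Cox7a2l, which helps to join complexes III and IV into supercomplexes, -0.83 ± 0.08. Both were below 0 on all 8 arrays, Atp5if1 between -1.20 and -0.59 and Cox7a2l between -1.09 and -0.72. Cox6a2, a subunit not tested for lack of Cy5 signal above background, had Control log2 ratios of -1.29, -1.34, -1.49 and -1.42.

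**Figure D1:**
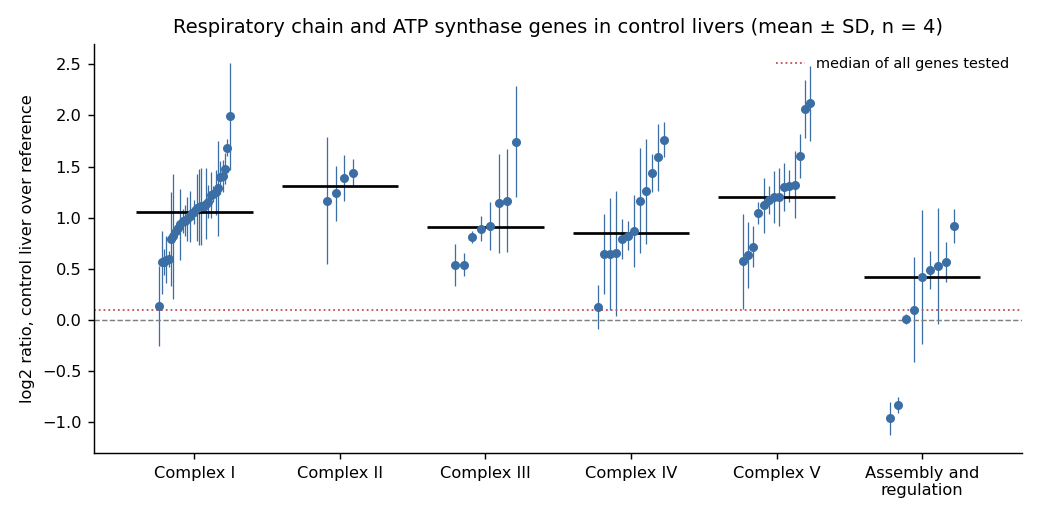
Mean log2 ratio of Control liver over reference (vertical axis) for each tested member, grouped by complex. Points are genes with SD over 4 Control arrays of both slide columns. Black bars are class medians and the dotted line is the median of all genes tested (0.0968). All 69 subunits lie above 0, and Atp5if1 and Cox7a2l lie below it.

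The comparison of 0.5MAhR with Control asked whether the mixture changed the level of these genes in the offspring's liver. No member passed the adjusted threshold of 0.05, with slide column fitted (0 of 78 members, against 0.0473% of all genes tested) or without it (0 of 78, against 0.00946%). Most differences were small and below 0: 65 members had a lower mean in 0.5MAhR and 13 a higher one, so 83.3% were lower, against 53.2% of all genes tested. With each array centred on its median in place of loess normalisation, 45 were lower and 33 higher. The members' median difference was -0.0836 on the log2 scale, a change of -5.63%, beside a median of -0.00775 over all genes. Among the brightest 25% of all genes in Cy5, which held 66 of the 78 members, 67.1% were lower and the median was -0.0402. In bulk liver, fewer cells of a type and less RNA per cell cannot be told apart.

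At an unadjusted p under 0.05, 4 members were lower (2.84% of all genes were) and 1 was higher (3.5% of all genes were). These were Ndufb8, Ndufb3, Ndufb9 and Atp5pd on the lower side and Ndufaf1 on the higher side. The groups did not overlap for 1 member on the lower side, Ndufb8, against 0.53% of all genes tested. Without Control 8, the members' median difference was -0.0548, 55 members were lower and 23 higher, and 0 passed the adjusted threshold (2 of all genes did). At an unadjusted p under 0.05, 2 were then lower and 2 higher, and without 0.5MAhR 1, 1 was lower and 2 were higher.

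By complex, complex III had the lowest median difference, -0.114, with all 8 members lower. The median was -0.0984 for complex IV (11 of 12 lower), -0.0892 for complex V (12 of 14 lower), -0.0615 for complex I (24 of 31 lower) and -0.0518 for complex II (3 of 4 lower). For assembly factors and regulators it was -0.0240, with 7 of 9 lower, but 0.0130 in column 1 and -0.0985 in column 2, 0.0265 with median centring and 0.0332 without Control 8. The classes were not tested against each other. Without Control 8 the median of complex III was -0.0729, and that of complex IV was lower. With median centring the median of complex III was -0.0489, still the lowest. The medians of complexes I, II, IV and V were then also smaller in size than with loess. With the scanner's processed signals complex III was again lowest, but complex II came next. The order of the complexes thus depended on the processing and on single arrays.

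**Figure D2:**
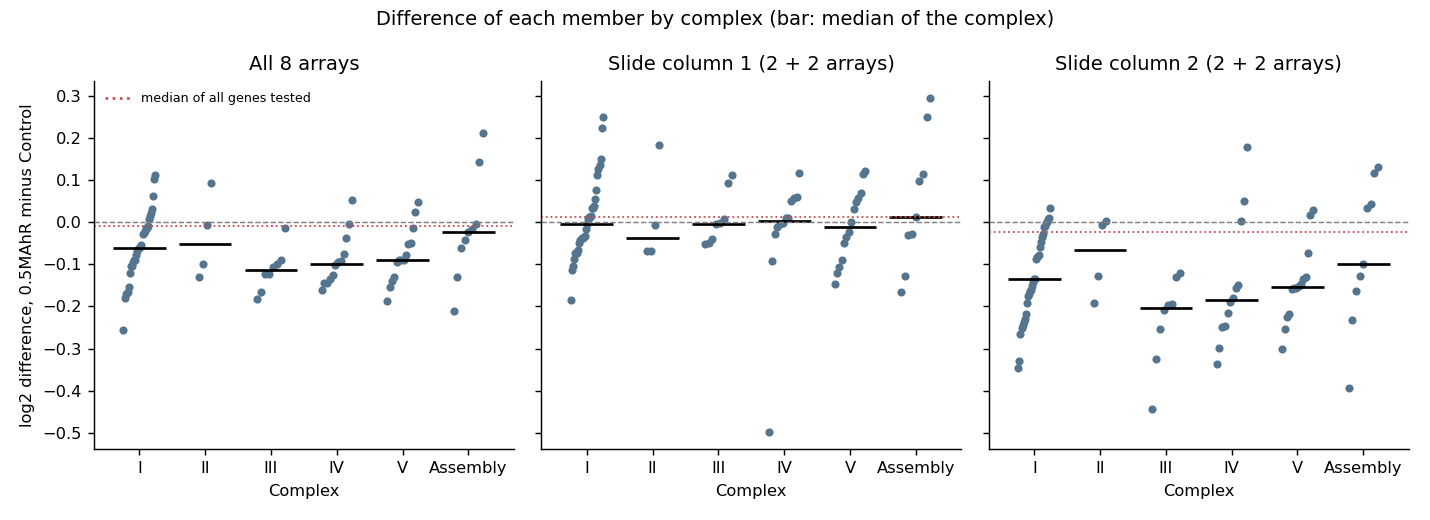
Log2 difference of 0.5MAhR minus Control (vertical axis) for each of the 78 members by complex, over all 8 arrays and within each slide column. Black bars are class medians and the dotted line is the median of all genes tested. Over all arrays and in column 2, 65 of 78 points lie below 0, and in column 1, 41 of 78.

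The lower values came mainly from slide column 2. In column 1 the members' median difference was -0.00284, with 41 of 78 lower (46.2% of all genes were lower there), and in column 2 it was -0.151, with 65 of 78 lower (56.1% of all genes). The medians of all genes were 0.0114 and -0.0229. The complex III median was -0.00322 in column 1 and -0.203 in column 2, that of complex IV 0.00414 and -0.185, and that of complex V -0.0109 and -0.153. For complex I the medians were -0.00325 and -0.135, and for complex II -0.0369 and -0.0667.

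The difference between the columns was tested as the interaction of group and column. It was below 0 for 68 of 78 members, with a median of -0.146 against -0.0352 over all genes. It passed the adjusted threshold for 0 members, as for 0% of all genes. At an unadjusted p under 0.05, 5 members remained, against 4.99% of all genes, and all 5 values were negative. They were Ndufa1, Ndufa10l1, Ndufb5, Cox6a1 and Atp5f1e, named after their values were seen apart from Cox6a1. 

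Within column 2, both 0.5MAhR arrays lay below both Control arrays over the members. As the median over the members of the deviation from the Control mean of the same column, 0.5MAhR 1 had -0.174 and 0.5MAhR 3 had -0.125, with the Control arrays at -0.0112 and 0.0112. In column 1, 0.5MAhR 2 had -0.0202 and 0.5MAhR 4 had -0.00649, with the Control arrays at -0.00342 and 0.00342. Centring on 2 Control arrays makes their values mirror each other around 0, so these do not measure the spread between Control pools. For complex III in column 2 the Control arrays were at -0.0845 and 0.0845, with 0.5MAhR 1 at -0.235 and 0.5MAhR 3 at -0.209. The brown fat signal of Control 8 lies in column 2, and without Control 8 that column holds 1 Control array.

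Brightness went with the differences. The brightest 25% of all genes in Cy5 had a median difference of -0.0402, with 67.1% lower, and the dimmest 25% had 0.00604. In column 2 the brightest 25% were at -0.0947 and in column 1 at 0.0135. Of the 78 members, 66 lay in the brightest 25%, with a median of -0.0899, 56 of them lower, and with -0.156 in column 2. The part of brightness in the members' differences was not tested.

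Complex I held the member with the smallest p. Ndufb8, an accessory subunit of the membrane arm, had log2 ratios of 0.95, 0.84, 0.91 and 0.89 in Control 5 to 8 and of 0.58, 0.80, 0.49 and 0.69 in 0.5MAhR 1 to 4. All 4 0.5MAhR arrays lay below all 4 Control arrays. The difference was -0.26 ± 0.07 (SE), lower in both columns (-0.18 and -0.33), with an adjusted p of 0.41 by limma.

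Ndufb3, another membrane arm subunit, had log2 ratios of 1.38, 1.61, 1.32 and 1.60 in Control and of 1.33, 1.21, 1.40 and 1.26 in 0.5MAhR. The groups overlapped, but within each column both 0.5MAhR arrays were below both Control arrays. Its difference was -0.18 ± 0.06 (SE), with a limma adjusted p of 0.66. Ndufb9 of the same arm had 1.13, 1.04, 1.12 and 1.17 in Control and 0.82, 1.06, 0.89 and 1.01 in 0.5MAhR, where only 0.5MAhR 2 reached the Control range. Its difference was -0.17 ± 0.07 (SE), with a limma adjusted p of 0.73.

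On the higher side of complex I stood Ndufb4, at 0.11 ± 0.08 (SE), Ndufa10, at 0.10 ± 0.12, and Ndufs1, the largest iron-sulfur subunit, at 0.06 ± 0.08. None of these had an unadjusted p under 0.05, and Ndufb4 has 11 RefSeq pseudogenes or numbered copies. A further tested probe of Ndufb4 gave a difference of -0.01 ± 0.08. Of the catalytic core, Ndufv1, which binds NADH, differed by -0.07 ± 0.07. Ndufs4, an accessory subunit mutated in Leigh syndrome, differed by -0.05 ± 0.06.

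In complex II, Sdha had log2 ratios of 0.57, 1.74, 0.68 and 1.66 in Control 5 to 8 and of 1.79, 0.78, 1.62 and 0.84 in 0.5MAhR 1 to 4. The arrays of column 2 were high and those of column 1 low in both groups, and the groups overlapped. Its difference was 0.09 ± 0.08 (SE), with a limma adjusted p of 0.90. The iron-sulfur subunit Sdhb differed by -0.13 ± 0.06, and the membrane anchors Sdhc and Sdhd by -0.01 ± 0.06 and -0.10 ± 0.06.

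In complex III, the cytochrome bc1 complex, each of the 8 measured members had a lower mean in 0.5MAhR. The Rieske iron-sulfur protein Uqcrfs1 had log2 ratios of 0.95, 0.60, 1.17 and 0.95 in Control and of 0.51, 1.00, 0.39 and 1.04 in 0.5MAhR. In column 2 both 0.5MAhR arrays were below both Control arrays, and in column 1 they lay between them. The difference was -0.18 ± 0.10 (SE), with a limma adjusted p of 0.87. The core proteins Uqcrc1 and Uqcrc2 differed by -0.10 ± 0.08 and -0.09 ± 0.08, the hinge protein Uqcrh by -0.12 ± 0.08 and Uqcrb by -0.11 ± 0.09. Uqcrq, at -0.17 ± 0.16, was above background on 3 Control and 2 0.5MAhR arrays. Uqcr10 differed by only -0.01 ± 0.09, and its sign changed under 10 of the 24 alternatives described below.

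Complex IV showed how far single arrays could move a gene. Cox5a had log2 ratios of 0.97, -0.25, 0.80 and 1.08 in Control and of 0.41, 0.28, 0.78 and 0.50 in 0.5MAhR. Control 6 was far below the other arrays of its group, and the groups overlapped. Its difference was -0.16 ± 0.26 (SE), -0.49 without Control 6 and 0.04 without Control 8, with limma adjusted p-values of 0.94, 0.47 and 1.00.

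Cox6a1 had log2 ratios of 1.19, 0.50, 1.15 and 0.64 in Control and of 0.18, 1.23, 0.28 and 1.21 in 0.5MAhR. Both 0.5MAhR arrays were above the Control arrays in column 1 and below them in column 2. Its interaction was -0.39, with an unadjusted p of 0.020 and an adjusted p of 0.94 by limma. Among the other subunits, Cox4i1 differed by -0.09 ± 0.09 (SE), Cox6b1 by -0.10 ± 0.08 and Cox7a2 by -0.08 ± 0.06. Further values were those of Cox5b, which binds zinc, at -0.14 ± 0.09, Cox8a at -0.13 ± 0.07, and Ndufa4, once counted in complex I and now in complex IV, at -0.14 ± 0.07. Cox4i2 was the 1 member of the complex with a higher mean, at 0.05 ± 0.07.

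In complex V, Atp5pd, the d subunit of the peripheral stalk, had log2 ratios of 1.07, 1.12, 0.89 and 1.11 in Control and of 0.82, 0.85, 0.90 and 0.88 in 0.5MAhR. All 0.5MAhR arrays lay below 3 of the Control arrays and overlapped with Control 7. The difference was -0.19 ± 0.07 (SE), with a limma adjusted p of 0.69. The delta subunit Atp5f1d differed by -0.15 ± 0.08 and Atp5mc1 by -0.14 ± 0.07. Other subunits of the catalytic head and shaft were Atp5f1a, which differed by -0.01 ± 0.09, Atp5f1b by 0.02 ± 0.07, the epsilon subunit Atp5f1e by -0.09 ± 0.10 and the gamma subunit Atp5f1c, the central shaft, by 0.05 ± 0.06.

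Among assembly factors and regulators, Ndufaf1, an assembly factor of complex I, had log2 ratios of 0.50, 0.79, 0.33 and 0.63 in Control and of 0.81, 0.68, 0.87 and 0.74 in 0.5MAhR. Control 6 overlapped with the 0.5MAhR arrays, and the other Control arrays lay below all of them. The difference was 0.21 ± 0.08 (SE), with an unadjusted p of 0.020 and an adjusted p of 0.66 by limma. Ndufaf4, also a complex I assembly factor, differed by -0.21 ± 0.11, Sdhaf1, which helps to insert the iron-sulfur clusters of complex II, by -0.13 ± 0.09, and Atp5if1 by 0.14 ± 0.10.

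**Figure D3:**
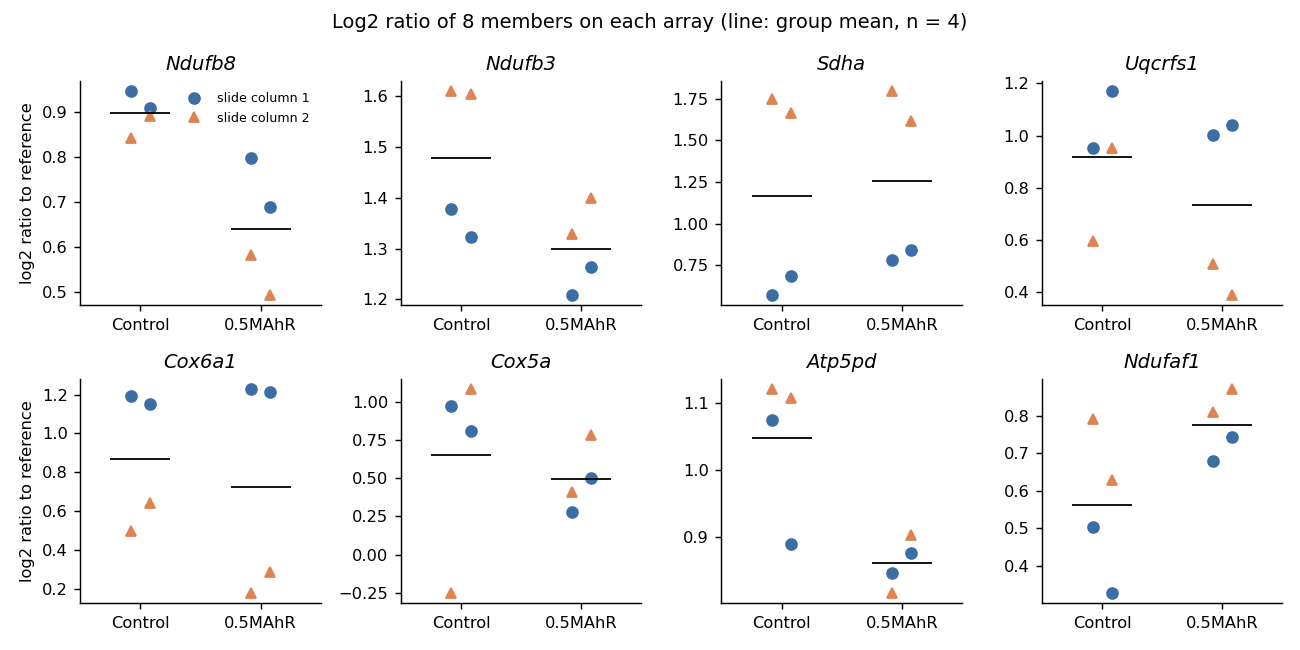
Log2 ratio to the reference (vertical axis) of 8 members on each of the 8 arrays, in Control and 0.5MAhR, with circles for slide column 1, triangles for column 2 and a line for the group mean (n = 4). Ndufb8 is the member whose groups do not overlap, and in Sdha and Cox6a1 the columns differ more than the groups.

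Differences between the slide columns were larger than those between the groups, with a median size of 0.319 over the members. The log2 ratio differed between the columns past the adjusted threshold for 53 of 78 members (67.9%), against 56.9% of all genes tested, 33 being higher in column 2 and 20 lower. The largest were Ndufa5, at -1.08 ± 0.08 (SE) for column 2 minus column 1, Sdhaf1, at -1.06 ± 0.09, Cox6c, at -1.002 ± 0.101, and Sdha, at 0.98 ± 0.08. Genes of the same complex went opposite ways, as did Sdha and Sdhc (-0.46 ± 0.06). Ndufa5 was singled out after its value was seen.

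Probes of one gene also disagreed on the columns. For Uqcr11, a small subunit of complex III, column 2 minus column 1 was -0.90 on the brightest probe and 0.76 and 0.57 on the other probes, while 0.5MAhR minus Control was -0.12, -0.05 and -0.09. For Atp5mc2, which codes for the same ring subunit as Atp5mc1, the column values were 0.47 and -1.18 on its probes, and the group differences -0.13 and -0.10. Of 13 members with more than 1 probe tested, 5 had column differences of both signs, and in 10 all probes gave the same sign of the group difference. Ndufb4 and Cox6b1 were among those whose probes gave group differences of both signs. Of the 78 tested members, 40 had a RefSeq pseudogene or numbered copy, to which a probe may also bind.

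**Figure D4:**
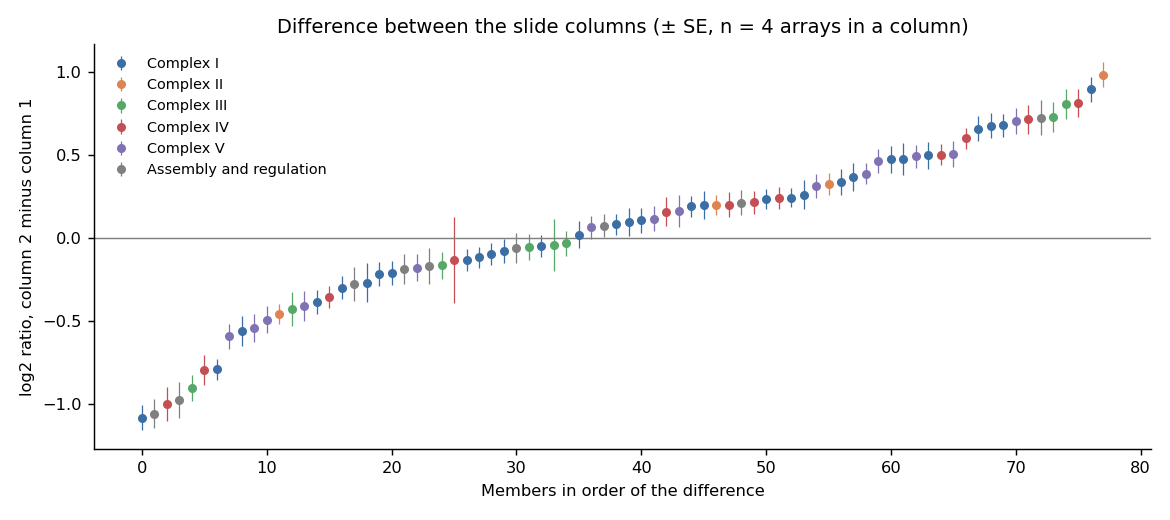
Log2 ratio in slide column 2 minus column 1 (vertical axis, ± SE, n = 4 arrays in a column) for the 78 members in order of that difference (horizontal axis), coloured by complex. The points run from -1.08 (Ndufa5) to 0.98 (Sdha), and each complex lies on both sides of 0.

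The reference channel gave a check of the arrays, since the same reference RNA was used throughout. In Cy3 alone, 0 of 78 members differed between the groups past the adjusted threshold, against 0.00946% of all genes. The members' median Cy3 difference was -0.000364, and single members lay between -0.0854 and 0.0853. In Cy5 alone, the members' median difference was -0.0435, with 58 lower and 20 higher.

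Brown fat markers are given because brown adipocytes are rich in mitochondria. Cidea, a lipid droplet protein of brown fat, had a log2 Cy5 signal of 7.64 on Control 8 and of 6.58 to 7.14 on the other arrays. Cox8b, the heart, muscle and brown fat isoform of subunit 8, had 6.37, 6.35, 6.42 and 7.23 on Control 5 to 8 and 6.40, 6.55, 6.32 and 6.45 on 0.5MAhR 1 to 4. Control 8 was the highest array for Ucp1, Cidea and Cox8b, which was above background on 1 Control and 2 0.5MAhR arrays and was not tested.

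Of adipose genes added after these values were seen, Adipoq, coding for adiponectin, was at 6.57 on Control 8 (5.77 to 6.31 elsewhere) and Fabp4 at 7.64 (6.40 to 6.96 elsewhere). Pnpla2 was also highest on Control 8, at 7.60 (7.24 to 7.51 elsewhere). Other genes of the list were not high there: Cidec had 7.87, the lowest of the 8 arrays (7.89 to 8.32 elsewhere), Lpl 6.63 (6.53 to 7.28 elsewhere) and Fabp3 6.54 (6.35 to 6.80 elsewhere). Elovl3, Dio2 and Lep were not above background on any array. Of the muscle markers, Ckm, Acta1, Myh7 and Mb were not above background on any array either, and Tnnt2, above background on 4 Control and 3 0.5MAhR arrays, had 6.76 on Control 8 (6.59 to 6.93 elsewhere). The part of this signal in the members' difference was not tested, and the values without Control 8 are those given above.

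**Figure D5:**
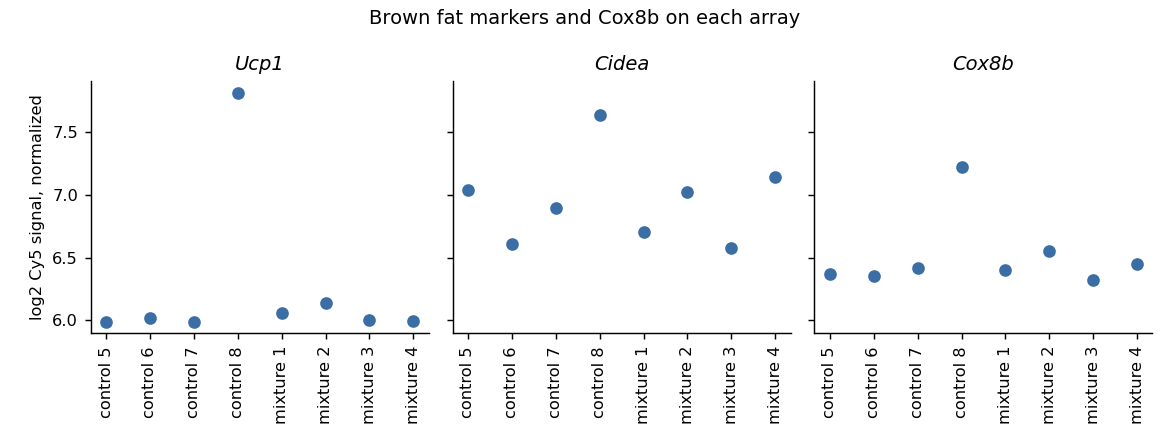
Normalised log2 Cy5 signal (vertical axis) of Ucp1, Cidea and Cox8b on each of the 8 arrays (horizontal axis). Control 8 is the highest array in each panel, at 7.82, 7.64 and 7.23.

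The other 4 members with a probe that did not reach the test were Cox6a2, Cox7c, Cox8c and Ndufaf7. Cox7c and Cox8c were above background in neither channel on any array, and Ndufaf7 was above background in Cy5 on 2 Control and 2 0.5MAhR arrays. Cox7a1, the muscle isoform of subunit 7a, and Ndufa4l2 had no named probe.

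Pathways around the respiratory chain contained no gene past the adjusted threshold. The tricarboxylic acid cycle, which feeds NADH and succinate into the chain, had 11 of 14 genes lower, with a median of -0.0634 (0.00692 in column 1 and -0.140 in column 2). Its lowest gene by moderated t was Idh3b, a subunit of NAD-linked isocitrate dehydrogenase, at -0.18 ± 0.07 (SE, limma adjusted p 0.69), and its highest Dlst at 0.08 ± 0.07. The list of cytochrome c and the entry points of electrons had 6 of 8 lower (median -0.0736, with -0.133 in column 1 and -0.125 in column 2). By moderated t the lowest was Prodh, proline dehydrogenase, at -0.27 ± 0.13, and the highest Dhodh, of pyrimidine synthesis, at 0.10 ± 0.11, while Sqor had a larger difference with a wide error (0.29 ± 0.46). The pairs given for the lists below are likewise the lowest and highest by moderated t. Ubiquinone synthesis had 4 of 8 lower, with Coq5 at -0.16 ± 0.08 and Coq6 at 0.07 ± 0.07.

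Assembly factors named outside the prefixes did not share the members' direction for complex I. There 6 of 9 were higher (median 0.0706), led by Acad9, which acts with Ndufaf1 and Ecsit in complex I assembly, at 0.18 ± 0.07 (SE, limma adjusted p 0.71), and Oxa1l was lowest at -0.05 ± 0.08. For complexes III to V, 13 of 19 were lower (median -0.0223), from Lrpprc, which stabilises mitochondrial messenger RNA, at -0.18 ± 0.09 to Cox16 at 0.23 ± 0.09 (limma adjusted p 0.71). Regulators of mitochondrial biogenesis had 10 of 14 lower (median -0.0362). At an unadjusted p under 0.05, against 2.84% of all genes on the lower side and 3.5% on the higher side, 3 of the 14 regulators were lower, as was Idh3b of the 14 cycle genes, while Acad9 and Cox16 were higher in their lists. The regulators were Polg2, of the mitochondrial DNA polymerase, at -0.19 ± 0.08, Esrra, which codes for ERR alpha, at -0.24 ± 0.10, and Twnk, the mitochondrial helicase, at -0.19 ± 0.08. Nrf1, Gabpa and Yy1, whose motifs are shown above, differed by 0.02 ± 0.08, 0.01 ± 0.07 and 0.09 ± 0.07. Carriers and uncoupling proteins had 5 of 7 lower, from Vdac3 at -0.10 ± 0.07 to Ucp2 at 0.11 ± 0.08.

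Members with and without a motif had close median differences: -0.0945 with NRF1 letters and -0.0754 without, -0.0896 and -0.0676 for ETS, -0.0887 and -0.0779 for YY1, and -0.0937 and -0.0779 for ERR.

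Markers of liver cell types were read beside the members, and 0 of them passed the adjusted threshold. Hepatocyte markers were lower in 7 of 8, with a median of -0.115 (-0.0292 in column 1 and -0.225 in column 2), from Cps1 of the urea cycle at -0.35 ± 0.15 (SE) to Apoa2 at 0.44 ± 0.11. Of all genes tested 53.2% were lower, and of the brightest 25% in Cy5 67.1% were, with a median of -0.0947 in column 2. The marker lists were not matched for brightness. Kupffer cell markers were higher in 6 of 6, with a median of 0.145 (0.172 in column 1 and 0.0516 in column 2). They ran from Clec4f at 0.01 ± 0.08 to Cd5l at 0.37 ± 0.19. In column 2, Clec4f (-0.07), Marco (-0.01) and Cd163 (-0.12) were lower and the other Kupffer cell markers higher. Of other lists, 2 of 3 sinusoidal endothelium, 3 of 5 stellate, 2 of 3 bile duct and 1 of 3 erythroid markers were higher. The part of cell type markers in the members' differences was not tested.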

How the data were processed

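Liver RNA in Cy5 and reference RNA in Cy3 were measured on 8 Agilent arrays. Per the file headers, the authors' spot intensity values came from version 11.0.1.1 of Agilent Feature Extraction. The files used here hold median signals, so the deposited median intensity columns were used. The deposited value table holds log2 Cy5/Cy3 ratios, and how the authors made them is not stated in the labels. On each array they correlated with loess ratios on uncorrected signals at r of 0.997 to 0.998, with column medians of -0.0389 to -0.0326, and their centring stayed unknown.

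In R 4.3.3 with limma 3.58.1, signals were corrected with normexp (offset 50) and normalised by loess within arrays, after which outlier spots were dropped and each probe's spots averaged. Through RefSeq accessions (GRCr8, names only), 18005 of 30367 probes received a symbol. Testing required a Cy5 signal well above background on 3 or more of a group's 4 arrays (11407 probes), and the brightest probe stood for each gene. Differences were fitted with lmFit and eBayes with slide column as a block, adjusted by Benjamini-Hochberg over all genes, two-sided. The array's position suffix gave column and row. The fit was tested on simulated data with known changes, where most changes of 0.3 on the log2 scale were not called.

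Named members were those with the 3 highest and 3 lowest moderated t in complexes I, III, IV and V, all of complex II, 2 of each among assembly factors and regulators, and fixed isoforms and catalytic subunits. One gene taken by this rule is not reported here. For other lists the highest and lowest gene were named, with exceptions stated. Members and lists were chosen with earlier results of these data known. Alternatives covered slide position, background correction, normalisation, filters, probes and single arrays.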

Additional observations from a re-analysis of the deposited data

Results flagged for a closer look

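Of 166 groups of 4 arrays examined, 2 held an array far from the others, where chance gives about 1 in 20. Atp5pb, of the peripheral stalk of the ATP synthase, had a log2 ratio of 1.07 on Control 6, and the nearest Control array was at 1.37, a gap of 0.885 of the group's range. Cox8b had a log2 Cy5 signal of 7.23 on Control 8, and the nearest Control array was at 6.42, a gap of 0.922 of the range.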

How the results depend on the processing

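No paired analysis was possible because Control pools 5 to 8 and 0.5MAhR pools 1 to 4 share no replicate number. Each slide row held 1 array of each group, and with slide column and row as blocks 5 of all genes passed and Ndufb8 had a limma adjusted p of 0.53. No member passed the adjusted threshold under any of the 24 alternatives (0 of 78, 77 or 83 members by filter), with limma throughout. At an unadjusted p under 0.05 the alternatives gave 0 to 7 lower and 0 to 3 higher members, and in column 1 alone 1 lower and 3 higher. The members' median difference stayed below 0 under all 24. It was -0.00284 in slide column 1 alone, -0.151 in column 2 alone and -0.0166 with median centring, and -0.0956 to -0.0548 with single arrays left out. The median of complex IV was 0.00414 in column 1 alone. Of 43 named members, 21 kept their sign under all alternatives that measured them.

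Over all genes, 5 passed with slide column fitted. The count was 1 without slide column, 2 in column 1 alone, 0 in column 2 alone (591 at an unadjusted p under 0.05), 0 with the scanner's processed signals (860 at an unadjusted p under 0.05), 3 with median centring, 14 in Cy5 alone, 3 with probes above background on all 8 arrays and 3 with trended robust variances. It was 1 without slide column and Control 8, an alternative chosen after seeing the data, where the members' median was -0.0497 with 52 lower and 26 higher. Leaving out single arrays gave 1 to 11. The causes were not tested. The members' differences lay between -0.26 and 0.21, and signal over background left 78 of the 83 members with a probe to test.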
